A study of Homo sapiens with 32 samples.

Results

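The tripartite motif (TRIM) genes were described in THP-1 cells, a human monocytic leukaemia line, in which ATP-citrate lyase (ACLY) had been knocked out and, in part, put back. Members were all genes named TRIM followed only by digits whose mean deposited normalized count over the 32 libraries was at least 10. Of 66 such symbols in the tables, 36 passed, and these are 36 of the 12406 genes tested. The cells were ACLY knockout cells (KO) and knockout cells transduced with a lentiviral pCDH-EF vector coding for wild-type ACLY (WT), the catalytically inactive mutant H760A (HA) or the mutant S455A (SA), which cannot be phosphorylated at that serine. Each of the 4 lines was left unstimulated or given lipopolysaccharide (LPS), the bacterial ligand of TLR4, at 100 ng/ml for 3 h by the labels, with 4 libraries in each of the 8 groups. All 4 lines thus lack the endogenous ACLY, the WT control is itself a transduced and puromycin-selected line, and whether KO was transduced with an empty vector was not given in the sources used here. By the labels each genotype is a single line, its libraries are repeats of it, and the p-values measure the spread between these libraries, which may be technical. In bulk RNA, fewer cells of a type and less RNA per cell cannot be told apart.

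The libraries held 6504099 to 14750815 reads on genes (median 10247620), counted at the 3′ ends of transcripts, so levels do not grow with gene length. All levels are normalized counts on a joint scale set over the 32 libraries, and each difference is a log2 fold change, fitted by limma to log2(normalized count + 1), with Benjamini-Hochberg adjustment over the 12406 genes and a call at an adjusted p below 0.01. ACLY transcripts did not separate KO from WT, with 101.6 ± 11.4 in WT and 88.5 ± 17.4 in KO (SD, n = 4), a log2 fold change of -0.21 (adjusted p = 0.884). Whether the counted 3′ end lies within the altered part of the gene was not given. The paper built the vectors from the ACLY coding sequence and showed ACLY protein in WT, HA and SA by Western blot. Whether the counts hold the transduced transcript was not tested. The 11 monocytic markers were all detected, although FCN1, a secreted monocyte lectin, had reads in 26 of 32 libraries only. Their summed level was 9831 to 15242 in WT with and without LPS, 22135 to 39779 in KO, 21053 to 26895 in HA, 10705 to 12766 in unstimulated SA and 12377 to 27956 in SA with LPS, where replicate 1 was highest and the next had 14494. Of this sum, lysozyme (LYZ) alone gave 1913 to 33229 (median 8828), and the median log2 fold change over the 11 markers was 0.13 and 0.02 in KO and 0.08 and 0.11 in HA (unstimulated and with LPS). LYZ rose by 1.89 in unstimulated KO, 2.29 in KO with LPS, 1.62 in unstimulated HA and 1.88 in HA with LPS (log2), while FCN1 was lower in KO, at -4.26 and -3.65. CD14 was higher in unstimulated KO (1.66) and lower in HA with LPS (-1.37), ITGAM was lower in HA with LPS (-1.41) and CD33 in KO with LPS (-0.73). Of 14 markers of other cells, CD3E, COL3A1 and GP9 were at 0 in every library, and PECAM1, which monocytic cells also express, lay between 2201 and 6299 and was higher in unstimulated KO (0.88) and in HA (0.94 and 0.83). The part of these markers in the TRIM differences was not tested. One library, SA LPS replicate 1, stood apart, with a median absolute log2 difference of 0.977 to the other 3 of its group against 0.179 to 0.592 for the rest. The differences of TRIM22, TRIM5 and TRIM69 in SA with LPS are also given without it. Other SA values with LPS include it unless stated, and it enters the estimate of the spread that all groups share.

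TRIM proteins carry an amino-terminal RING finger, B-box and coiled coil. The RING finger makes most of them E3 ubiquitin ligases, the coiled coil lets them assemble, and a variable carboxy-terminal part, most often a PRY-SPRY domain, picks the target. Many are known for innate immunity in myeloid cells: some restrict viruses directly, others place or remove ubiquitin on the sensors and adaptors that lead to type I interferon, and part of the family is itself induced by interferon through STAT and IRF factors that bind interferon-stimulated response elements. Other members work away from immunity, in transcriptional repression, microtubule binding or protein turnover.

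The proximal promoters of the members were therefore searched for the core letters of that element, GAAA, any 2 bases and GAAA again, on both strands, in a window from 250 bases before to 50 bases after the RefSeq start (GRCh38.p14). The motif was chosen with the results known. Of the 36 members, 26 had a promoter in the table, and TRIM28, TRIM24, TRIM8, TRIM35, TRIM11, TRIM27, TRIM13, TRIM45, TRIM22 and TRIM4 had none. The letters occurred in 8 of the 26 promoters (30.8%), against 1255 of 35116 promoters in the whole table (3.57%). The first share counts members and the second counts entries of a table that was not limited to the genes tested. The 8 were those of TRIM2, TRIM5, TRIM14, TRIM16, TRIM21, TRIM26, TRIM44 and TRIM69. The matches in 5 of them are printed because they lie in members whose levels are followed below or, for TRIM14, in a member of the interferon-induced list whose levels were flat. Letters are given 5′ to 3′ on the strand of the gene, with the motif, in whichever orientation it occurred, in capitals.
TRIM5 (chr11:5685075-5685164, minus strand): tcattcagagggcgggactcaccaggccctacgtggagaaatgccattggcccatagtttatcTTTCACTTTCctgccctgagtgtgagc
TRIM26 (chr6:30213542-30213631, minus strand): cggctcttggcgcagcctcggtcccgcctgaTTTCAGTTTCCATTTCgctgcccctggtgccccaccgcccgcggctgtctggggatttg
TRIM69 (chr15:44736423-44736512, plus strand): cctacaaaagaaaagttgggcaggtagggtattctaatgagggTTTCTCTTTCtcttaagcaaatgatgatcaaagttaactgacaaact
TRIM14 (chr9:98119223-98119312, minus strand): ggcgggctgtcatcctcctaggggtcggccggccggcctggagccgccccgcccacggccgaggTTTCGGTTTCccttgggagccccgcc
TRIM21 (chr11:4393661-4393690, minus strand, after the start): gagcgGAAACTGAAAGTGAAAtagggagct
In TRIM5, TRIM14 and TRIM69 the match lay within the 62 bases before the start, at bases -27 to -18, -26 to -17 and -62 to -53. TRIM26 held a pair of overlapping matches at -194 to -185 and -188 to -179, and TRIM21 a pair just after the start, at 18 to 27 and 24 to 33. A second motif was TTCNNNGAA, the core of the gamma-activated site bound by STAT dimers. Counted in the same way, it occurred in 3 of the 26 promoters (TRIM2, TRIM16 and TRIM46, 11.5%) and in 7.66% of all. A match is a description of the letters, not evidence of a bound site.

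**Figure D1:**
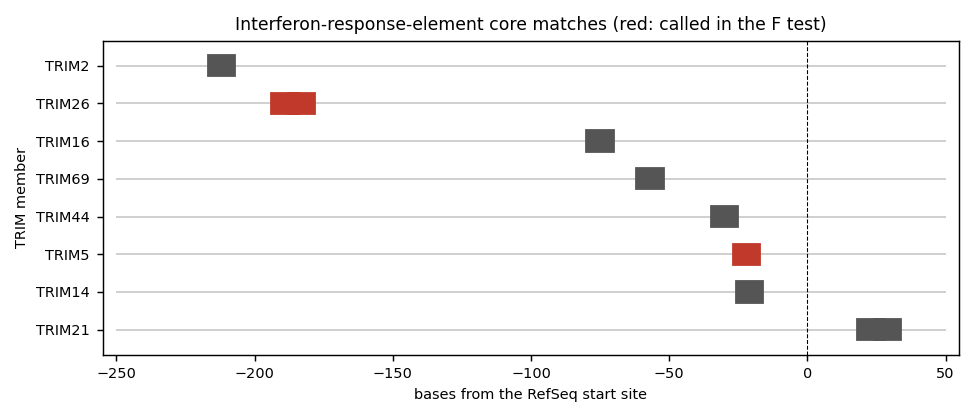
Position of each match to the response-element core, on either strand, in the promoters of the 8 members that held one, in bases from the RefSeq start site (dashed line), with red boxes for members called in the test of any line against WT. TRIM5, TRIM14, TRIM16, TRIM44 and TRIM69 carry their match within 80 bases before the start, and the matches of TRIM21 lie after it.

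Between the lines, 5 of the 36 members differed and 31 did not pass. A moderated F test of KO, HA and SA against WT over both conditions called TRIM22 (F = 24.9, adjusted p = 7.21e-08), TRIM26 (F = 9.88, adjusted p = 2.30e-04), TRIM5 (F = 9.58, adjusted p = 2.91e-04), TRIM65 (F = 9.22, adjusted p = 3.89e-04) and TRIM13 (F = 6.84, adjusted p = 2.93e-03). These are 13.9% of the members, where 7.15% of all genes tested were called. In single contrasts TRIM22 was called higher in KO, TRIM5 and TRIM26 in KO and HA, and TRIM65 lower in HA, while TRIM13 had its highest means in HA and passed in no single contrast. TRIM22, TRIM5, TRIM26 and TRIM65 carry a PRY-SPRY domain, and TRIM13 is anchored in the membrane of the endoplasmic reticulum. Each of the 5 was called in all 32 fits that left out 1 library. The 3 members nearest to the threshold were TRIM69 (adjusted p = 0.0132), TRIM11 (adjusted p = 0.0165) and TRIM24 (adjusted p = 0.0188). TRIM69 passed without SA LPS replicate 1 (adjusted p = 1.47e-04) and, less far, without KO replicate 3, SA LPS replicate 3 or SA LPS replicate 4. TRIM11 passed without KO LPS replicate 3, SA replicate 3 or SA replicate 4, and TRIM24 without HA replicate 1 or HA LPS replicate 1, at adjusted p-values of 0.00491 to 0.00971 in these refits.

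**Figure D2:**
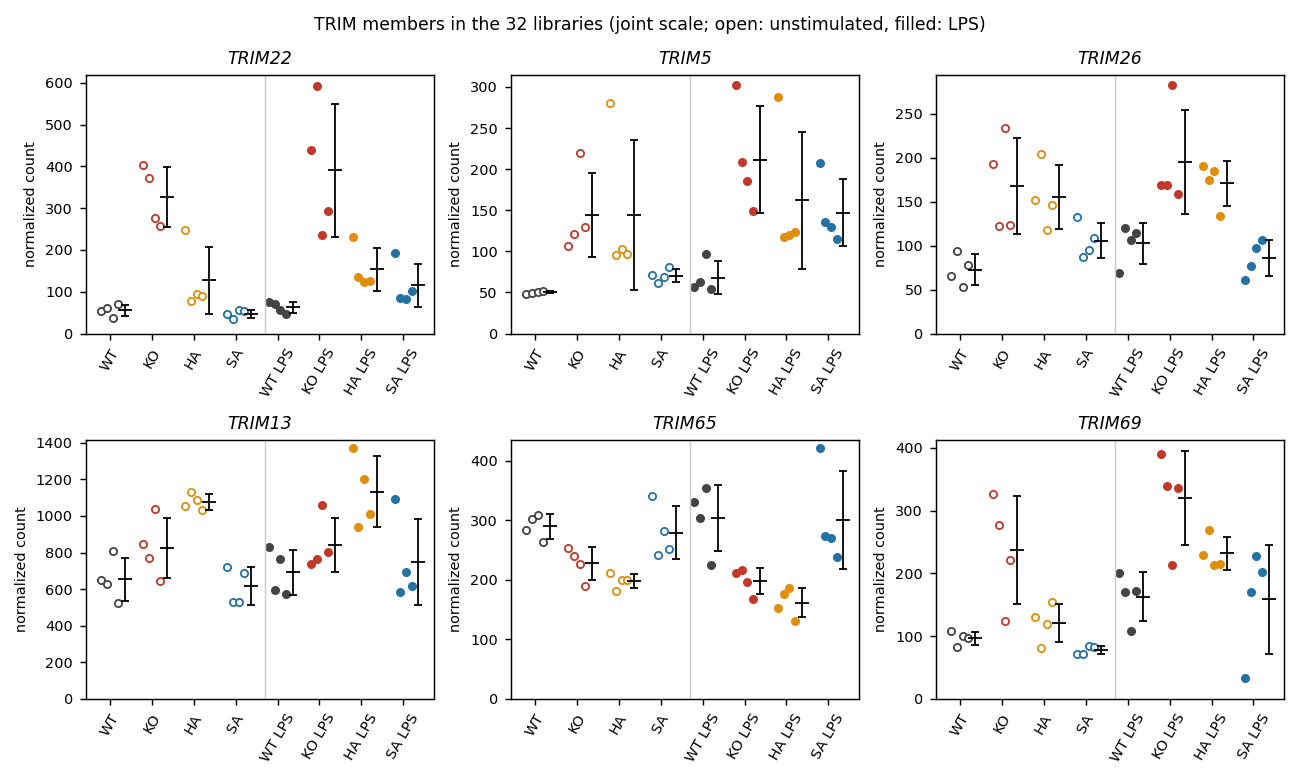
Normalized counts (joint scale) of the 5 called members and of TRIM69 in every library, by line, with open symbols for unstimulated and filled symbols for LPS-treated cells and bars for mean ± SD (n = 4). TRIM22 lies at 37.0 to 76.3 in the WT libraries and at 236 to 592 in the KO libraries. The HA libraries lie at 79.0 to 248.

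TRIM22, an interferon-induced ligase that restricts retroviruses and influenza virus, had the largest difference between lines in the family. Unstimulated WT libraries (replicates 1 to 4) had 54.4, 60.3, 37.0 and 70.0 normalized counts and KO libraries 404, 373, 277 and 257. With LPS, WT libraries had 76.3, 71.1, 57.5 and 47.5 and KO libraries 440.0, 592, 236 and 294. Every KO library was above every WT library in both conditions, and the differences with LPS within WT and within KO, 0.20 and 0.19, were not called. The means were 55.4 ± 13.9 against 328 ± 71.7 unstimulated and 63.1 ± 13.1 against 391 ± 159 with LPS (SD, n = 4), log2 fold changes of 2.55 (SE 0.33, adjusted p = 4.49e-06) and 2.54 (SE 0.33, adjusted p = 4.69e-06). Leaving out any 1 library kept both calls, at 2.37 to 2.68 and 2.31 to 2.76. HA libraries had 248, 79.0, 94.3 and 89.0 unstimulated and 231, 135, 124 and 126 with LPS. All HA libraries were thus above all WT libraries, with replicate 1 high in both conditions, and the differences from WT, 1.06 (SE 0.33, adjusted p = 0.0516) and 1.24 (SE 0.33, adjusted p = 0.0279), did not pass. Without HA replicate 1 the unstimulated value was 0.68 (adjusted p = 0.25), and without HA LPS replicate 1 the LPS value was 1.03 (adjusted p = 0.145). SA libraries had 45.7, 34.8, 55.9 and 52.8 unstimulated, none of them above the WT range, and 192, 86.0, 82.4 and 101 with LPS. The SA values against WT were -0.21 (adjusted p = 0.998) and 0.79 (adjusted p = 0.826), the second being 0.52 without SA LPS replicate 1.

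TRIM5, whose alpha isoform binds the incoming capsid of retroviruses, lay at an even level in unstimulated WT. The unstimulated WT libraries had 48.7, 49.4, 50.4 and 51.6 and the KO libraries 106, 121, 220.3 and 129.7. With LPS the values were 56.9, 63.3, 97.3 and 54.7 in WT and 302, 209, 185 and 149.6 in KO. KO and WT did not overlap in either condition. Within WT, every LPS library lay above every unstimulated one, a difference of 0.40 that was not called. TRIM5 was higher in KO by 1.45 (SE 0.32, adjusted p = 0.0036) unstimulated and 1.61 (SE 0.32, adjusted p = 9.99e-04) with LPS. The LPS call was kept in 8 of 8 fits that left out a library, and the unstimulated call in 3 of 8, with the largest loss without KO replicate 3 (1.23, adjusted p = 0.0253). In HA the libraries had 281, 95.8, 103 and 97.0 unstimulated and 288, 117, 119.8 and 123 with LPS. Replicate 1 again stood above the other 3 in both conditions. The unstimulated difference passed at 1.34 (SE 0.32, adjusted p = 0.00909) and the LPS difference did not, at 1.16 (SE 0.32, adjusted p = 0.032). Without HA replicate 1 the unstimulated value was 0.96 (adjusted p = 0.0675), and the call held in 1 of 8 such fits. SA had 70.7, 61.6, 68.2 and 81.1 unstimulated and 207, 135, 130.1 and 115 with LPS, all above the WT libraries of the same condition, with differences of 0.48 (adjusted p = 0.998) and 1.10 (adjusted p = 0.826) that did not pass. Without SA LPS replicate 1 the latter was 0.93.

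TRIM22 and TRIM5 are neighbours on chromosome 11 that overlap on opposite strands in GENCODE 44 (GRCh38). TRIM22 (ENSG00000132274) lies at chr11:5689610-5737089 on the plus strand and TRIM5 (ENSG00000132256) at chr11:5663195-5938619 on the minus strand. The strand setting of the read counting was not given in the sources used here, so reads over the shared stretch cannot be assigned to 1 of them with certainty. In unstimulated HA, all 4 libraries lay below every KO library for TRIM22. For TRIM5, 3 of them did and HA replicate 1 lay above every KO library.

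TRIM26, a ligase encoded in the major histocompatibility complex that acts on IRF3 in antiviral signalling, was, like TRIM5, called higher in both KO and HA. WT libraries had 65.8, 93.8, 52.6 and 77.9 unstimulated and 68.8, 121, 107 and 114 with LPS. KO libraries had 192, 123, 234 and 123 unstimulated and 168, 169, 283 and 159 with LPS, and HA libraries 151, 204, 118 and 146 and 190.2, 174, 185 and 134. No KO or HA library overlapped with the WT libraries of its condition. The unstimulated differences passed, at 1.18 (SE 0.25, adjusted p = 0.00284) for KO and 1.09 (SE 0.25, adjusted p = 0.00739) for HA, and those with LPS did not, at 0.91 (SE 0.25, adjusted p = 0.0237) and 0.75 (SE 0.25, adjusted p = 0.0958). The KO call held in 4 of 8 fits without 1 library (0.999, adjusted p = 0.0208 without KO replicate 3) and the HA call in 2 of 8 (0.95, adjusted p = 0.0413 without HA replicate 2). SA had 132, 86.6, 95.3 and 108 unstimulated and 61.4, 76.4, 97.5 and 107 with LPS, overlapping with WT in both, with differences of 0.55 (adjusted p = 0.998) and -0.26 (adjusted p = 0.85). The gene (ENSG00000234127) lies at chr6:30184455-30213427 on the minus strand and holds the pseudogene PAIP1P1 on the same strand.

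TRIM65, the ligase that modifies the RNA sensor MDA5 (IFIH1), was the called member that went down. WT libraries had 283, 301, 309 and 263 unstimulated and 331, 304, 354 and 225 with LPS. HA libraries had 210.5, 181, 199 and 200.2 and 153, 177, 185 and 130.3, and KO libraries 254, 239, 227 and 189.5 and 211, 216, 196 and 168. Every KO and HA library was below every WT library of its condition. The LPS difference of HA passed, at -0.90 (SE 0.17, adjusted p = 0.00109), in 8 of 8 fits without 1 library (-1.04 to -0.80). The other differences were -0.55 (SE 0.17, adjusted p = 0.0474) for unstimulated HA, -0.35 (SE 0.17, adjusted p = 0.333) for unstimulated KO and -0.60 (SE 0.17, adjusted p = 0.0261) for KO with LPS. SA stayed with WT at 341, 242, 282 and 251 unstimulated and 420.2, 274, 269 and 238 with LPS, differences of -0.06 and -0.03. The gene (ENSG00000141569) lies at chr17:75880335-75896951 on the minus strand and overlaps no other annotated gene.

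TRIM13, a ligase of the endoplasmic reticulum that takes part in the degradation of misfolded proteins, was the most abundant of the 5. WT libraries had 649.9, 629.6, 809 and 525 unstimulated and 829, 597, 763 and 575 with LPS, and HA libraries 1054, 1129.8, 1089.7 and 1032 and 1373, 941, 1203 and 1012. HA lay above WT without overlap in both conditions. Its differences, 0.74 (SE 0.19, adjusted p = 0.0155) and 0.71 (SE 0.19, adjusted p = 0.0253), were past the threshold in the F test only and not alone. KO libraries had 846, 771, 1038 and 642 unstimulated and 738, 765, 1058 and 803 with LPS, and SA libraries 720.0, 528, 531 and 690.4 and 1092, 586, 696 and 615. Both overlapped with WT, with differences of 0.33 and 0.28 for KO and -0.08 and 0.08 for SA. TRIM13 (ENSG00000204977, chr13:49995888-50020481, plus strand) overlaps KCNRG on the same strand and DLEU2 on the other.

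In single contrasts, 3 members were called higher in unstimulated KO (TRIM22, TRIM5 and TRIM26), where 1.80% of all genes tested were called higher. With LPS, 2 were called higher in KO (TRIM22 and TRIM5; 2.14% of all genes). In HA, 2 were called higher unstimulated (TRIM26 and TRIM5; 1.42%) and 1 lower with LPS (TRIM65; 0.854%). On the deposited scale, which was set within each line, the calls in HA with LPS were 3 higher (TRIM5, TRIM13 and TRIM22) and 1 lower (TRIM65). Those in KO with LPS were 2 higher and 1 lower (TRIM65), and those in unstimulated HA were 4 higher (TRIM5, TRIM13, TRIM24 and TRIM26). Against WT, that scale lay 0.15 (HA) and -0.10 (KO) log2 units from the joint one. The shares of all genes called on it were not counted, so the added calls cannot be read as a result about the members. The median log2 fold change over the 36 members was 0.15 in unstimulated KO, 0.12 in KO with LPS, 0.28 in unstimulated HA and 0.17 in HA with LPS, against medians between -0.03 and -0.01 over all genes tested. Members whose libraries did not overlap with those of WT numbered 6 (16.7%) and 7 (19.4%) in KO unstimulated and with LPS, against 12.0% and 13.9% of all genes. In HA they numbered 10 (27.8%) and 9 of 36, against 17.6% and 13.5%. TRIM22, TRIM5 and TRIM26 on the higher side and TRIM65 on the lower side were in all 4 of these sets, and the sets share their WT libraries.

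The replicate numbers of WT and KO went together: deviations of same-numbered libraries from their group means correlated at 0.124 to 0.723 in every pair of these 4 groups. When the number was fitted as a block, with the compared groups alone in the fit, further members passed. In unstimulated KO the block called 4 members higher, where 3.33% of all genes were called higher: TRIM22, TRIM5, TRIM69 (1.20, adjusted p = 0.00552) and TRIM56 (0.72, adjusted p = 0.00268), while TRIM26 no longer passed (adjusted p = 0.0154). With LPS the block called 8 members, 6 higher (6.26% of all genes) and 2 lower (4.51%). The higher ones were TRIM22, TRIM5, TRIM26 (0.91, adjusted p = 0.00507), TRIM21 (1.38, adjusted p = 5.96e-05), TRIM69 (0.97, adjusted p = 1.50e-04) and TRIM25 (0.38, adjusted p = 0.00685). The lower ones were TRIM65 (-0.60, adjusted p = 0.00596) and TRIM58 (-1.02, adjusted p = 0.00508), a ligase known from red cell maturation.

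TRIM69, an interferon-induced ligase that binds microtubules and restricts vesicular stomatitis virus, was called under the block in both conditions. WT libraries had 107, 82.9, 101 and 96.3 unstimulated and 201, 171, 108 and 171 with LPS, and KO libraries 326, 276, 124 and 221 and 390.2, 339, 214 and 336. Replicate 3 was the lowest library in WT with LPS and in KO with and without it. Every KO library was above every WT library of its condition. Without the block the differences were 1.20 (SE 0.38, adjusted p = 0.0669) and 0.97 (SE 0.38, adjusted p = 0.146). HA had 121 ± 30.7 and 232 ± 25.8 and SA 77.8 ± 7.05 and 158 ± 86.4 (SD, n = 4), where SA LPS replicate 1 had 33.6. Without that library the SA difference from WT with LPS turned from -0.31 to 0.32.

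TRIM21, the cytosolic antibody receptor, varied with the replicate number as well. With LPS the WT libraries had 142, 159, 48.1 and 125 and the KO libraries 457, 510.2, 103 and 269, again lowest in replicate 3, so that the groups overlapped while KO was above WT at every number. The unblocked difference was 1.38 (SE 0.45, adjusted p = 0.063), and it was 1.87 and passed (adjusted p = 0.00509) without KO LPS replicate 3. TRIM56, a ligase linked to STING signalling, was highest in replicate 3 in each of these groups: unstimulated WT had 223, 216, 362 and 224 and KO 364, 314, 669 and 383. With LPS it had 323, 313, 587 and 357 in WT and 505, 385, 769 and 428 in KO. Its unblocked difference in unstimulated cells was 0.72 (adjusted p = 0.151). TRIM25, the ligase that activates the RNA sensor RIG-I, had 1433 ± 136 in WT and 1913 ± 355 in KO unstimulated (SD, n = 4), a difference of 0.40 (adjusted p = 0.192).

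**Figure D3:**
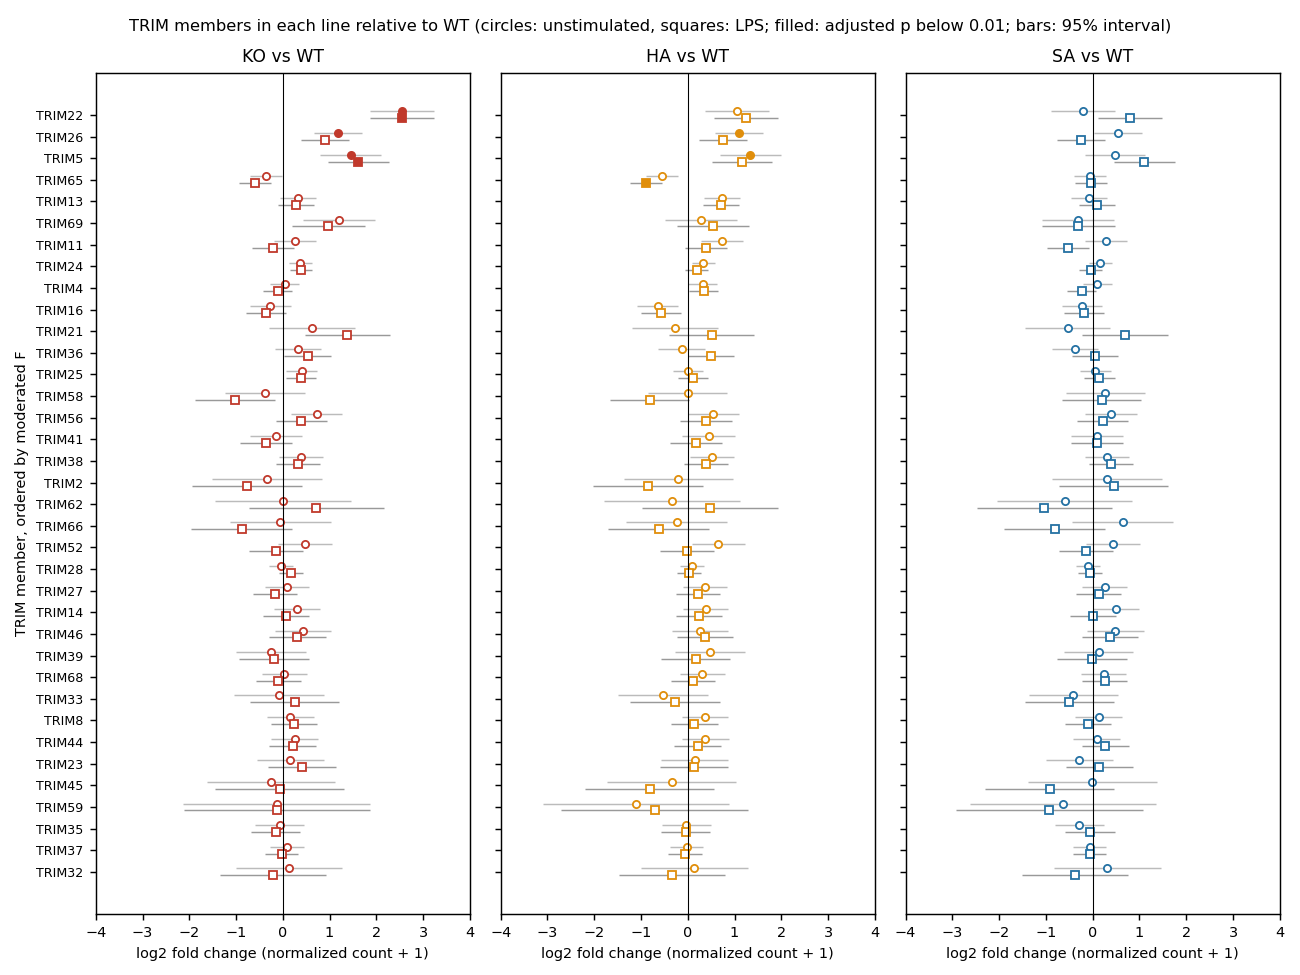
Log2 fold change of each of the 36 members in KO, HA and SA against WT, with its 95% interval, for unstimulated (circles) and LPS-treated cells (squares), ordered by the F statistic, with filled symbols at a limma adjusted p below 0.01. TRIM22 reaches 2.55 in KO, TRIM65 lies left of 0 in KO and HA, and the SA panel has no filled symbol.

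KO and HA were also compared with each other, since one lacks the ACLY protein and the other carries an inactive one. No member passed in either condition (0.226% of all genes tested did unstimulated and 0.00806% with LPS), with 6 and 4 members at an unadjusted p below 0.05 (10.4% and 10.5% of all genes), and limma-voom on the reads also called 0. The largest difference was that of TRIM22, which was higher in KO than in HA by 1.50 (95% interval 0.82 to 2.17, adjusted p = 0.0281) unstimulated and 1.30 (95% interval 0.62 to 1.98, adjusted p = 0.0907) with LPS, without overlap in either condition. Without HA replicate 1 the unstimulated value was 1.87 and passed (adjusted p = 0.00178). For TRIM5 the values were 0.11 (95% interval -0.53 to 0.76, adjusted p = 0.886) and 0.45 (95% interval -0.20 to 1.10, adjusted p = 0.611), and for TRIM26 0.09 (-0.43 to 0.60) and 0.16 (-0.35 to 0.67). These intervals allow differences of about 1 log2 unit for TRIM5. TRIM65 gave 0.19 (95% interval -0.15 to 0.54, adjusted p = 0.645) and 0.30 (95% interval -0.04 to 0.64, adjusted p = 0.528), and TRIM13 -0.41 (95% interval -0.79 to -0.02, adjusted p = 0.468) and -0.43 (95% interval -0.81 to -0.05, adjusted p = 0.408), with the lower level of TRIM13 in KO.

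In SA no member passed against WT, as 0 of the 12406 genes (0%) did in either condition, with 2 and 3 members at an unadjusted p below 0.05 (3.59% and 5.21% of all genes) and 0 called by limma-voom. The smallest adjusted p was 0.998 unstimulated and 0.825 with LPS. Members without overlap were TRIM5, TRIM24, TRIM38 and TRIM46 on the higher side unstimulated (11.1%, against 4.22% of all genes), and TRIM5 and TRIM22 on the higher and TRIM11 on the lower side with LPS (8.3%, against 2.61%). The 95% intervals for TRIM22 were -0.89 to 0.47 unstimulated and 0.12 to 1.47 with LPS, so that a change of the size seen in KO lies outside both.

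Of the 31 members that did not pass the F test, 12 had all 6 of their 95% intervals against WT within 1 log2 unit on either side of 0, and are the flat members of the family. These were TRIM25, TRIM44, TRIM14, TRIM28, TRIM24, TRIM4, TRIM27, TRIM8, TRIM38, TRIM35, TRIM37 and TRIM68. The replicate block nevertheless called TRIM25 in KO with LPS (0.38, adjusted p = 0.00685) and, over all libraries, TRIM24 in the F test (adjusted p = 0.00296). For the other 19 an interval reached past that limit, so that a change of this size was not bounded. Over the 31, the log2 fold changes ran from -1.11 (TRIM59 in unstimulated HA) to 1.38 (TRIM21 in KO with LPS). TRIM59, a membrane-anchored member, had 2.32 in SA LPS replicate 1, the library that stood apart, and 203 to 278 in the other 3 of its group.

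Among members not called, the 5 with the highest mean level were TRIM11 (1887), TRIM25 (1772), TRIM44 (1292), TRIM14 (1241) and TRIM28 (1192). TRIM28, the corepressor KAP1 that silences retroelements with KRAB zinc finger proteins, lay in group means between 1107 and 1313 and line differences between -0.11 and 0.17. The 15 genes of its corepressor list had no call in any contrast between lines. Of all genes tested, 1.80% were called higher in unstimulated KO, 2.14% in KO with LPS and 1.42% in unstimulated HA. In HA with LPS 0.854% were called lower, and in SA 0% were called either way. At such shares, the absence of calls is not a result about the list. TRIM14, which lacks the RING finger and serves as an adaptor of MAVS, had line differences between 0.01 and 0.49, and TRIM44, which lacks it too, between 0.08 and 0.38. TRIM24, a TIF1 corepressor and reader of histone marks, was one of the flat members, with 358, 371, 376 and 358 in unstimulated WT and 426, 535, 492 and 454 in KO. The groups did not overlap, and the difference of 0.38 (adjusted p = 0.07) did not pass. In TRIM44, SA LPS replicate 1 had 3089 where the other 3 had 1017 to 1065. TRIM11, a ligase of protein quality control, ran from 1213 ± 349.6 in SA with LPS to 2748 ± 383 in unstimulated HA, with WT at 1655 ± 246 (SD, n = 4). In SA with LPS, replicate 1 had 748 TRIM11 counts and the other 3 had 1139 to 1495.

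Each member was placed in 1 class only, so that members of other classes may carry a PRY-SPRY domain as well. By class, 4 of the 17 members in the PRY-SPRY class and 1 of the 2 membrane-anchored members were called in the F test. None of the others was: 4 TIF1-type corepressors (TRIM28, TRIM33, TRIM24 and TRIM66), 3 without a recognized carboxy-terminal domain (TRIM56, TRIM8 and TRIM52), 3 without a RING finger (TRIM44, TRIM14 and TRIM16), 3 with other carboxy-terminal domains (TRIM37, TRIM23 and TRIM45), the COS-box members TRIM36 and TRIM46, and the NHL-repeat members TRIM32 and TRIM2. The classes differ in level, from 16.5 and 30.8 for the NHL members to 19.8 to 1887 for the PRY-SPRY class. The NHL members were among those whose intervals were wide. The members just above the level limit were TRIM45 (mean deposited count 14.9) and TRIM2 (17.0). Just below it were TRIM31 (4.24) and TRIM3 (2.62).

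Of the 36 members, 9 belong to a list of 11 TRIM genes known to be induced by interferon (TRIM5, TRIM14, TRIM21, TRIM22, TRIM25, TRIM26, TRIM38, TRIM56 and TRIM69). From these, 3 were called in the F test, against 2 of the other 27 members. In unstimulated KO all 9 had positive differences, with a median of 0.72, against 15 of 27 and a median of 0.03 for the other members. With LPS the KO medians were 0.91 for the 9 and -0.11 for the 27. In HA they were 0.51 and 0.14 unstimulated and 0.51 and 0.11 with LPS, and in SA 0.30 and 0.10 unstimulated and 0.21 and -0.06 with LPS. The list was not uniform in the size of its differences, as TRIM14, TRIM25 and TRIM38 were among the flat members, whose intervals stayed within 1 log2 unit. Over the 6 line comparisons TRIM38 ran from 0.30 to 0.51, TRIM14 from 0.007 to 0.49 and TRIM25 from -0.0004 to 0.40. The TRIM38 libraries of HA lay above those of WT without overlap in both conditions. The other genes of the list, TRIM6 and TRIM34, fell below the level limit.

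After 3 h of LPS no member was called in WT, KO, HA or SA, where 0.250%, 0.580%, 0.403% and 0.492% of all genes were, and limma-voom called 0 too. At an unadjusted p below 0.05 there were 1, 1, 5 and 6 members, where 1.61%, 5.42%, 4.76% and 9.85% of all genes lay. The median of the members was 0.06 in WT, 0.03 in KO, -0.07 in HA and -0.04 in SA, near those of all genes (-0.02 to 0.02). TRIM21 had the largest value in KO, HA and SA, at 1.11 (adjusted p = 0.62), 1.12 (adjusted p = 0.714) and 1.58 (adjusted p = 0.127), and 0.35 (adjusted p = 1.00) in WT, where the largest was that of TRIM69. In WT, KO, HA and SA, TRIM69 had 0.71, 0.48, 0.96 and 0.71. In SA, where 1 LPS library stood apart, leaving it out raised the TRIM69 value to 1.35, which passed (adjusted p = 0.004). TRIM56 rose with LPS in WT in the blocked fit (0.61, adjusted p = 8.69e-04; 1.02% of all genes called), where each LPS library was above the unstimulated one of its number, and had 0.28 in KO, where the blocked fit called 0 members (0.935% of all genes). In SA, TRIM22 had 1.20 (adjusted p = 0.109) and TRIM5 1.02 (adjusted p = 0.193), and without the library that stood apart 0.93 (adjusted p = 0.397) and 0.85 (adjusted p = 0.458). Over the 9 interferon-induced members the medians were 0.35 in WT, 0.27 in KO, 0.39 in HA and 0.43 in SA, against 0.02, -0.11, -0.14 and -0.11 over the other 27. Tests of whether the LPS response of KO, HA or SA differed from that of WT called 0 members (0.00806%, 0% and 0% of all genes), with 0, 0 and 3 at an unadjusted p below 0.05 (1.41%, 1.14% and 3.68%).

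**Figure D4:**
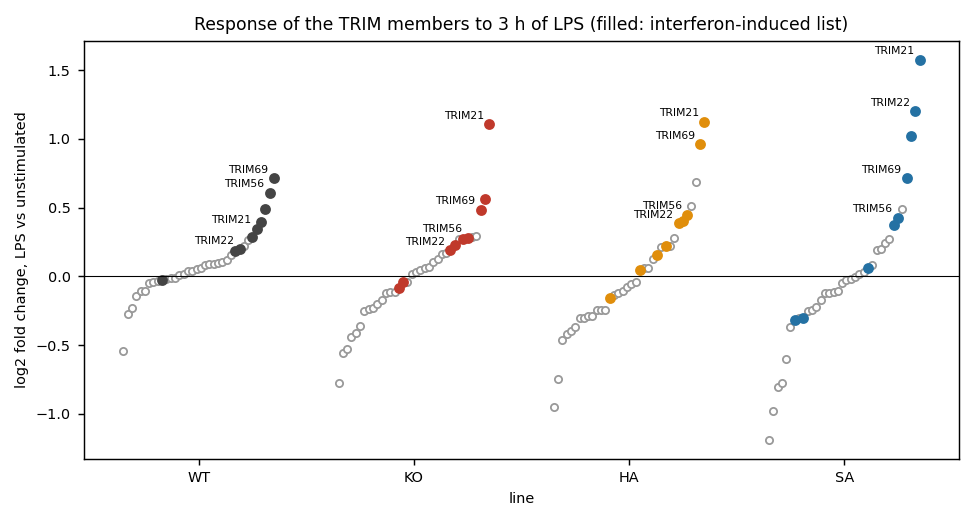
Log2 fold change with LPS of each of the 36 members in each line, sorted within the line, with filled symbols for the 9 interferon-induced members. TRIM21 is highest in KO, HA and SA (1.11, 1.12 and 1.58), and no member passed the adjusted threshold in any line.

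Around the family, the genes of RNA and DNA sensing and interferon signalling were followed as a list of 20. In unstimulated KO 6 were called higher and 0 lower, among them the RNA sensors DDX58 (2.09) and IFIH1 (2.05), the transcription factors IRF7 (1.93) and STAT2 (1.64), and the ubiquitin-like modifier ISG15 (2.68). With LPS 5 were higher in KO, among them the DNA sensor CGAS (1.43). In HA 4 were higher unstimulated (among them IFIH1 at 1.55, STAT2 at 1.45 and ISG15 at 1.64) and 3 with LPS (IFIH1 and ISG15 among them), and in SA 0. Over all genes tested, 1.80% were called higher in unstimulated KO, 2.14% in KO with LPS and 1.42% in unstimulated HA. In SA 0% were called in either direction. The share called higher in HA with LPS was not kept, so the 3 genes called there cannot be set against the whole. IFIH1, whose protein TRIM65 modifies, was called higher in KO and HA in both conditions. All TRIM65 libraries were below WT there, but in the main fit TRIM65 was called only in HA with LPS. A relation between these transcripts was not tested. The summed level of the 20 was 7131 to 8230 in unstimulated WT, 15830 to 19847 in KO, 10874 to 15518 in HA and 7954 to 9353 in SA. The highest HA library was replicate 1, which was also the highest for TRIM22 and TRIM5. In SA with LPS the sum was 11581 to 19677, highest in replicate 1. The part of these genes in the TRIM differences was not tested.

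Most other genes around the family did not pass. Of 15 E2 ubiquitin-conjugating enzymes, which hand ubiquitin to TRIM ligases, only UBE2L6, the E2 of ISG15, was called, in KO (1.43, adjusted p = 0.00271 unstimulated and 1.25, adjusted p = 0.00894 with LPS). This was 1 of 15 in each condition, where 1.80% and 2.14% of all genes were called higher. Of 4 TRIM proteins with other symbols, PML, the scaffold of nuclear bodies, was higher in unstimulated KO at 726 ± 219 against 344 ± 94.4 in WT (SD, n = 4), a difference of 1.07 (adjusted p = 0.00969). In unstimulated HA it had 642 ± 173, a difference of 0.90 (adjusted p = 0.034). MEFV, which encodes pyrin, and MID2, a microtubule-binding member, were not called in any contrast between lines, and MID1 was too low to be tested.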

How the data were processed

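RNA of 32 THP-1 libraries (QuantSeq 3′ mRNA-Seq) was sequenced by the authors in single-end mode. Their pipeline used Bbduk for trimming, STAR for alignment to GRCh38 and HTSeq-count for reads per gene (versions, annotation and strand setting not given in the sources used here). The deposited values are normalized counts, read counts divided by DESeq2 size factors that the authors computed separately for each line. In each of the tables, 60199 genes and spike-ins were listed, and the 92 spike-in rows (1 read) were left out. Multiplying back by the size factors gave whole reads for 100.000% of values (tolerance 0.05 reads). The reads were rescaled by median-of-ratios factors over all 32 libraries, and 12406 genes with a mean of at least 10 were tested. Against WT, the deposited scale lay -0.10 (KO), 0.15 (HA) and 0.26 (SA) log2 units from the joint one. Values were fitted as log2(normalized count + 1) with limma 3.58.1 (R 4.3.3), a mean for each of the 8 groups, a trended prior and Benjamini-Hochberg adjustment over all genes, and calls were made at an adjusted p below 0.01, the level the study used. The fit was tested on simulated data.

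Groups came from the sample titles. Replicate numbers were taken as pairing WT and KO, with and without LPS, because same-numbered deviations correlated above 0.1 in every pair (lowest 0.124), but not pairs with HA or SA. Members and gene lists were chosen with earlier results of these data known. Any member could be named. The values of 1 gene of the sensing list are not reported here. Values by library are given for called members, and for TRIM69, TRIM21 and TRIM56 because the block called them. Of the members not called, the 5 highest are given, and TRIM24 and TRIM59 were picked with their values in view. Gene positions are from GENCODE 44, and promoters, credited to RefSeq, from GRCh38.p14. Reads were not collapsed by molecular identifiers. In GENCODE 44, 14 members overlap another gene on the same strand and 23 one on the other strand. The alternatives were the deposited scale, a pseudocount of 5, no filter on low values, only the compared groups, the replicate block, limma-voom on the reads and leaving out single libraries.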

Additional observations from a re-analysis of the deposited data

Results flagged for a closer look

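In 88 groups of 4 libraries (11 named members in 8 groups), the highest or lowest library stood apart from the other 3 by Dixon's criterion in 8, where chance alone marks about 1 group in 20. For TRIM22 these were HA replicate 1 (248.08 normalized counts), HA LPS replicate 1 (230.83) and SA LPS replicate 1 (192.18). For TRIM5 they were HA replicate 1 (280.61) and HA LPS replicate 1 (287.67), the same libraries as for TRIM22. The summed level of the 20 sensing and interferon signalling genes was also highest in these libraries within their groups (15518 in HA replicate 1, 21394 in HA LPS replicate 1 and 19677 in SA LPS replicate 1), and their part in the TRIM values was not tested. For TRIM56, replicate 3 was high in WT (361.75) and in WT with LPS (587.4). For TRIM26, KO LPS replicate 3 was high (282.98).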

How the results depend on the processing

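Counts of members called depended on the processing more than the 5 members of the F test did. Shares of all genes called were counted for the main fit and for part of the blocked fits only. The other counts below have no such share to be read against. The F test gave 8 members on the deposited scale, adding TRIM11, TRIM24 and TRIM4, and the same 5 with limma-voom. KO against WT unstimulated (3 called) gave 1 with the compared groups only and 1 with limma-voom. KO against WT with LPS (2 called) gave 8 with the replicate block and the compared groups only. HA against WT unstimulated (2 called) gave 4 on the deposited scale, 1 with a pseudocount of 5, and 0 with no filter on low values, with the compared groups only, with the replicate block in those groups and with limma-voom. HA against WT with LPS (1 called) gave 4 on the deposited scale, 3 with the replicate block over all libraries, and 0 with the compared groups only, with or without the block. KO against HA unstimulated (0 called) gave 1 with the replicate block over all libraries (TRIM22, adjusted p = 0.00543, limma), and LPS in WT (0 called) gave 1 with the block in the compared groups (TRIM56). The cause of these shifts was not tested. HA and SA libraries share only a number with the others, so their blocked values are not read as pairing. Leaving out single libraries gave 1 to 3 members for unstimulated KO (1 without KO replicate 3, WT replicate 1 or WT replicate 3), 0 to 1 for unstimulated HA, 0 to 1 for KO against HA unstimulated (1 without HA replicate 1), and 0 to 1 for LPS in SA (1 without SA LPS replicate 1). No log2 fold change reversed in a contrast where the member was called. Small values in other contrasts changed sign. On the deposited scale these were 0.15 (TRIM25) in unstimulated HA, 0.18 (TRIM13), 0.20 (TRIM65) and 0.0465 (TRIM22) in unstimulated SA, and 0.22 (TRIM24), 0.24 (TRIM65) and 0.0063 (TRIM26) in SA with LPS. Leaving out single libraries gave values on both sides of 0 for TRIM25 (-0.0635 to 0.062 in unstimulated HA and -0.0053 to 0.12 in unstimulated SA), for TRIM13 (-0.18 to 0.0285) and TRIM65 (-0.16 to 0.0006) in unstimulated SA, and in SA with LPS for TRIM13 (-0.11 to 0.18), TRIM24 (-0.10 to 0.0132), TRIM56 (-0.041 to 0.42), TRIM65 (-0.20 to 0.0693) and TRIM69 (-0.59 to 0.32), where SA LPS replicate 1 set the bound past 0 for TRIM13, TRIM24, TRIM56 and TRIM69. Count models had been planned on the recovered reads (edgeR and DESeq2) but were not run, and limma-voom on those reads, chosen after seeing the data, stood in for them. The block moved no other count of members called by more than 1.5 times. None of the 8 members with a mean below 50 normalized counts had all its intervals against WT within 1 log2 unit, and some abundant members, TRIM11 among them, did not either.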

Other observations

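Below the level limit, 30 TRIM genes were left out, and 15 of them had 0 reads in every library. TRIM31, a ligase of the mitochondrial antiviral pathway, had 126 reads in all. These were 0 in unstimulated WT, 10 in KO, 0 in HA and 11 in SA, and with LPS 7 in WT, 37 in KO, 17 in HA and 44 in SA, each over 4 libraries. In SA the 11 reads came from 1 library, and with LPS the libraries had 37.05, 5.14, 3.48 and 0.86 normalized counts, the first being the library that stood apart. TRIM34, next to TRIM5 and TRIM22 in its family, had 82 reads, of which 1, 30, 8 and 4 were in unstimulated WT, KO, HA and SA and 2, 14, 16 and 7 in the same lines with LPS. These counts are too few for a test and are given as values.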
